A study of Mus musculus with 92 samples.

Results

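The 15 libraries described here, of 92 in the series, were made from the livers of 24-month-old female mice on a restricted diet: 8 on a Low Isoleucine diet and 7 on a Low Amino Acid diet. They were chosen by their sample labels alone, and no measured value entered the choice. All were HET3 mice, a cross of inbred strains in which each animal is genetically different, killed after an overnight fast. By their names, the Low Isoleucine diet limits a single essential branched-chain amino acid and the Low Amino Acid diet limits amino acids as a whole; the labels give no composition. Both diets began at 6 months of age per the labels, while the series description gives 13 weeks on diet, so the time on diet is uncertain. Values for 8 female livers of the same age on the Control diet, and for 16 female livers killed at 6 months (8 on each restricted diet), are given beside them. The comparison asks whether limiting isoleucine alone leaves the same liver transcriptome as limiting amino acids in general.

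As background, the liver reads amino acid supply through the kinase GCN2 and the transcription factor ATF4, which are switched on when a tRNA is uncharged, and through mTORC1. It reads the fed state largely through insulin: insulin receptor substrates and PI3-kinase activate AKT, which holds the transcription factor FOXO1 out of the nucleus and raises SREBP1, the driver of fatty acid synthesis. Genes that FOXO1 switches on during fasting, such as Igfbp1 and Irs2, carry insulin response elements in their promoters.

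Library totals were 7819965 to 24458537 counts on Low Isoleucine and 21486884 to 27002114 on Low Amino Acid. The lowest was Low Isoleucine replicate 5, and the next lowest of that diet held 19652851 counts. Alb, the albumin gene that marks hepatocytes, lay between 40119 and 105709 CPM (counts per 1000000 counts of the library) on Low Isoleucine and between 54445 and 111770 CPM on Low Amino Acid. The Y-linked gene Kdm5d reached at most 0.569 CPM on Low Isoleucine and 0.313 CPM on Low Amino Acid. A first principal component, with 33% of the variance, set 4 libraries apart: Low Isoleucine replicates 2 and 5 and Low Amino Acid replicates 2 and 4 scored 44.0 or more, and the other 11 scored 16.2 or less. These 4 libraries had already been singled out by earlier results of these data, and the main count is also given without them. The second component, with 11.1% of the variance, was negative in all 8 Low Isoleucine libraries and positive in all 7 Low Amino Acid libraries. The sample titles carry a number whose meaning is not stated: it is above 100 in 5 of 8 Low Isoleucine libraries and in 1 of 7 Low Amino Acid libraries. Low Isoleucine replicates 2 and 3 share a number, and so do several 6-month libraries within each restricted diet. No label states batch, cage or hour of collection. Among the 6-month libraries labelled female, Low Isoleucine replicate 3 goes against its label: it held 47.9 CPM of Kdm5d, and the other 15 on the restricted diets held at most 0.490 CPM. Results at 6 months are therefore given with and without it.

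Livers on Low Isoleucine had more RNA of Igfbp1, Irs2, Gadd45b and Dusp1 and less of Srebf1, Fabp5, Pik3r1, Slc5a1, the complement genes C8a and C8b, and Sorcs2 than livers on Low Amino Acid. Of 12155 genes tested, 75 (0.617%) passed an adjusted p of 0.05 in edgeR's quasi-likelihood test: 16 (0.132%) were higher and 59 (0.485%) lower on Low Isoleucine. Fitted log2 fold changes, Low Isoleucine over Low Amino Acid throughout, were under 1 in size for 50 of the 75. In 36 of the 75 the 2 groups of libraries did not overlap, which was so for 63 (0.518%) of all genes tested. An unadjusted p under 0.05 was reached by 1930 genes (15.9%). Over all genes tested, 6441 fold changes were positive and 5714 negative.

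These calls sat close to the threshold: all 75 had adjusted p values between 0.0313 and 0.0489. Leaving out Low Isoleucine replicate 1, 3 or 4, or Low Amino Acid replicate 1 or 5, left 0 genes past it. Without Low Isoleucine replicate 8 or 7 or Low Amino Acid replicate 6 or 7 the counts were 1, 9, 12 and 19, without Low Isoleucine replicate 2 the count was 48, and without Low Amino Acid replicate 2 it was 136. All 75 genes kept their direction in each of the 15 fits, which their selection in these same libraries made likely in advance. Without the 4 libraries that stood apart, 306 of 12100 genes (2.53%) passed, 83 (0.686%) higher and 223 (1.84%) lower, including 73 of the 75. With all 15 libraries DESeq2 called 456 genes (3.75%) and limma voom 623 (5.13%). Fits that pooled the spread over more female groups called 306 (2.47%) with the 4 restricted-diet groups, 137 (1.09%) with all 6 groups, and 16 (0.129%) with the 3 diet groups of 24 months. With a term for the title number, or among the 9 libraries with a number up to 100, 0 genes passed (1646 and 1028 had an unadjusted p under 0.05). With that term in the fit of the 3 diet groups, 2 genes passed (0.0161%), Paox and Tmem237. All 75 kept their direction in these 3 fits. In the 15-library fit with that term the median ratio of their log2 fold changes to those without it was 0.988. These values rest on the libraries in which the genes were selected, so they are no separate support. Of the genes named first, Pik3r1, Gadd45b and Slc5a1 passed in 9 of the 15 fits that each left out 1 library. Igfbp1 passed in 8, Fabp5, C8a and C8b in 7, and Srebf1 in 4. Dusp1 passed in 3, and Irs2 and Sorcs2 in 1. Every gene-level call, above and below, carries these limits.

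**Figure D1:**
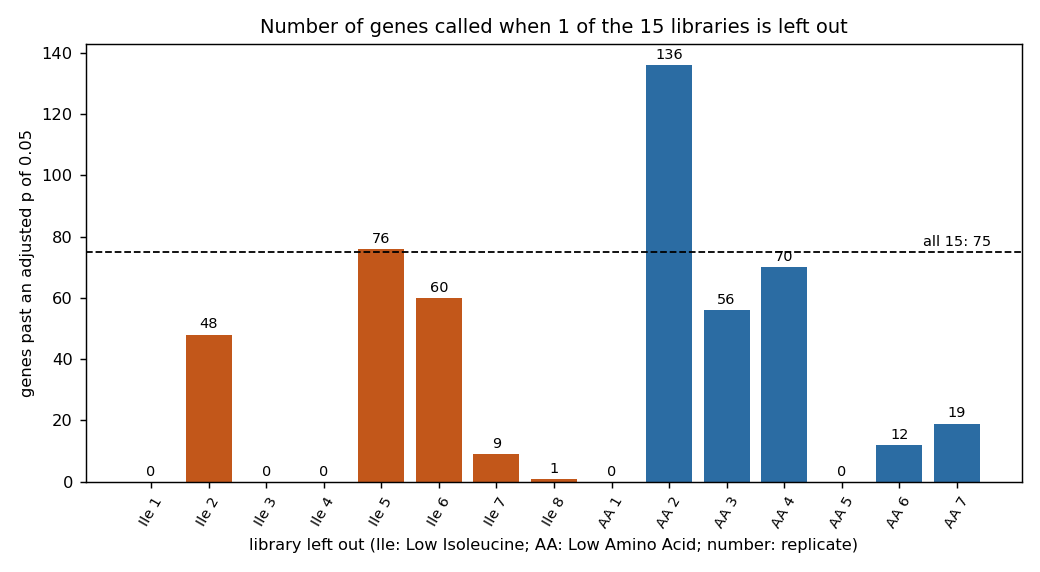
Bars give the number of genes past an adjusted p of 0.05 in edgeR's test (y axis) when the library named on the x axis was left out; the dashed line is the count with all 15 libraries. The counts run between 0 and 136 around the 75 obtained with all libraries.

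Insulin-regulated genes were among those called. Igfbp1 (chr11:7197782-7202546, GRCm38) encodes a secreted protein that binds IGF1 and is switched off by insulin. It had a lowest, median and highest level of 43.0, 110.4 and 119.7 CPM in Low Isoleucine livers and of 15.2, 43.2 and 52.5 CPM in Low Amino Acid livers. Replicate 5, the shallowest library, was the single Low Isoleucine liver inside the Low Amino Acid range. The fitted log2 fold change was 1.57 (SE 0.279, adjusted p = 0.0336, edgeR). Control livers spread from 12.1 to 441 CPM, wider than both restricted groups together.

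Irs2 (chr8:10984681-11008458), an adaptor that couples the insulin receptor to PI3-kinase, averaged 90.9 ± 18.5 CPM in Low Isoleucine livers and 54.1 ± 14.5 CPM in Low Amino Acid livers (SD, n = 8 and 7). The lowest Low Isoleucine liver, at 65.1 CPM, was below the highest Low Amino Acid liver, at 70.7 CPM, so the groups overlapped at their edges, and the log2 fold change was 0.75 (SE 0.163, adjusted p = 0.0485, edgeR). Pik3r1 (chr13:101680563-101768217), the regulatory subunit of PI3-kinase, had the smallest p of all genes. Its lowest, median and highest levels were 137, 148 and 172 CPM in Low Isoleucine livers against 183, 214 and 245 CPM in Low Amino Acid livers. The groups did not overlap, and the log2 fold change was -0.49 (SE 0.077, adjusted p = 0.0313, edgeR). Of 21 tested genes in the glucose production and use list, 2 rose, 0 fell and 19 did not pass. The median log2 fold change was -0.03 against 0.02 over all genes tested. The 2 were Igfbp1 and Irs2, the insulin-regulated genes given above, and no enzyme of the list passed. In the growth hormone and IGF1 list, Igfbp1 alone of 19 tested genes passed; Igf1 averaged 753 ± 137 CPM in Low Isoleucine livers and 954 ± 164 CPM in Low Amino Acid livers (SD, n = 8 and 7; log2 fold change -0.34, adjusted p = 0.230, edgeR).

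The promoter windows of Igfbp1 and Irs2 are shown because both hold the core of the insulin response element, and both genes were higher on Low Isoleucine. They span 250 bases before to 50 after the start in RefSeq on GRCm38.p6, at chr11:7197537-7197836 on the plus strand for Igfbp1 and at chr8:11008880-11009179 on the minus strand for Irs2. For Igfbp1 that start lies 5 bases inside the gene as GENCODE M21 places it, and for Irs2 it lies 471 bases before the GENCODE start, so the whole Irs2 window is outside the gene coordinates given above. The core of Irs2 begins 37 bases before the RefSeq start and 508 bases before the GENCODE start. Capitals mark the core, CAAAACA on either strand.
Igfbp1: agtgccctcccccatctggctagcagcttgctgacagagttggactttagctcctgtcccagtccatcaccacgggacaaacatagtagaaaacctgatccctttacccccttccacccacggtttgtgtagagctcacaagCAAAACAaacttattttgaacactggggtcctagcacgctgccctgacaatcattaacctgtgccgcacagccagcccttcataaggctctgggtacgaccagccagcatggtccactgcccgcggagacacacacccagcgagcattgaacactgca
Irs2: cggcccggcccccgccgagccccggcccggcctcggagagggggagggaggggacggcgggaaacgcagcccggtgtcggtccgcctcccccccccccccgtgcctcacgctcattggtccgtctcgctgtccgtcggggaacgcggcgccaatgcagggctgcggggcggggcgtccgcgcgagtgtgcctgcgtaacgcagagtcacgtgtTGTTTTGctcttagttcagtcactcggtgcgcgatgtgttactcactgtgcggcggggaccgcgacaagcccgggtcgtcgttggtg
A window was found for 59 of the 75 genes. The core CAAAACA, searched on both strands, occurred in 7 of the 59 (11.9%) and in 7.20% of the 27025 genes with a window; the 7 were Igfbp1, Irs2, Ikbkg and Tfpt, which were higher, and Mrnip, Plce1 and Serpina7, which were lower. Among the other motifs searched on both strands, the FOXO core GTAAACA occurred in 1 of the 59 and in 4.05% of all genes with a window. The E-box CACGTG occurred in 6 of the 59 (10.2%) and in 8.09% of all genes with a window. The 6 were Dusp1, Gadd45b, Irs2 and Secisbp2, which were higher, and Gpr146 and Slc5a1, which were lower. In the Irs2 window above it stands in small letters just before the marked core. The cAMP response element TGACGTCA occurred in 1 (2.03% of all), the sterol response element TCACCCCAC in 1 (0.614%), and the amino acid response element TGATGCAAT and the C/EBP site TTGCGCAA in 0 (0.222% and 0.207%). A match is a description of these letters, not a measured binding site.

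Fatty acid synthesis was represented by its regulator. Srebf1 (chr11:60199089-60222581), which encodes SREBP1, had a lowest, median and highest level of 50.3, 115 and 151 CPM in Low Isoleucine livers against 147, 191 and 289 CPM in Low Amino Acid livers. The groups met only at their edges, Control livers at 124 to 299 CPM lay with the Low Amino Acid livers, and the log2 fold change was -0.92 (SE 0.192, adjusted p = 0.0416, edgeR). Of the 22 SREBP1 and fatty acid synthesis genes, 1 fell (Srebf1), 0 rose and 21 did not pass; 15 of the 22 fold changes were negative and the median was -0.27. Thrsp, a lipogenic cofactor, had 3.81, 5.90 and 7.62 CPM in Low Isoleucine livers against 5.19, 12.1 and 51.2 CPM in Low Amino Acid livers (log2 fold change -1.77, adjusted p = 0.0526, edgeR). Without the 4 libraries that stood apart, 3 genes of this list were lower, Thrsp among them (log2 fold change -2.10). Fasn, fatty acid synthase, averaged 171 ± 57.7 CPM in Low Isoleucine livers and 206 ± 73.4 CPM in Low Amino Acid livers (SD, n = 8 and 7) and did not pass (log2 fold change -0.27, SE 0.237, adjusted p = 0.623). Of 24 tested genes of cholesterol synthesis and uptake, none passed, 18 had negative fold changes and the median was -0.18.

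Fabp5 (chr3:10012548-10016607), an intracellular fatty acid-binding protein, had 3.23, 8.01 and 13.5 CPM as lowest, median and highest in Low Isoleucine livers against 13.2, 25.6 and 81.4 CPM in Low Amino Acid livers. Only Low Isoleucine replicate 8 reached the lowest Low Amino Acid level. Control livers ranged from 8.49 to 254 CPM, and the log2 fold change between the restricted diets was -2.19 (SE 0.420, adjusted p = 0.0354, edgeR). Apoa4, an apolipoprotein of triglyceride-rich lipoproteins, had 839, 1796 and 2558 CPM in Low Isoleucine livers against 1889, 3492 and 4536 CPM in Low Amino Acid livers; it did not pass with all libraries (log2 fold change -0.94, adjusted p = 0.107), and was lower without the 4 that stood apart (-1.21, adjusted p = 0.0400, edgeR). None of the 21 tested apolipoprotein and lipoprotein assembly genes passed (median log2 fold change 0.00). In the bile acid list 1 of 21 tested genes rose: Cyp27a1 (chr1:74713574-74737892), the sterol 27-hydroxylase of the acidic pathway, with 176, 268 and 297 CPM in Low Isoleucine livers against 138, 163 and 207 CPM in Low Amino Acid livers (log2 fold change 0.63, SE 0.119, adjusted p = 0.0336, edgeR). Cyp7a1, the rate-limiting enzyme of the classical pathway, averaged 220.4 ± 152 CPM in Low Isoleucine livers and 318 ± 149 CPM in Low Amino Acid livers (SD, n = 8 and 7; adjusted p = 0.594, edgeR).

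**Figure D2:**
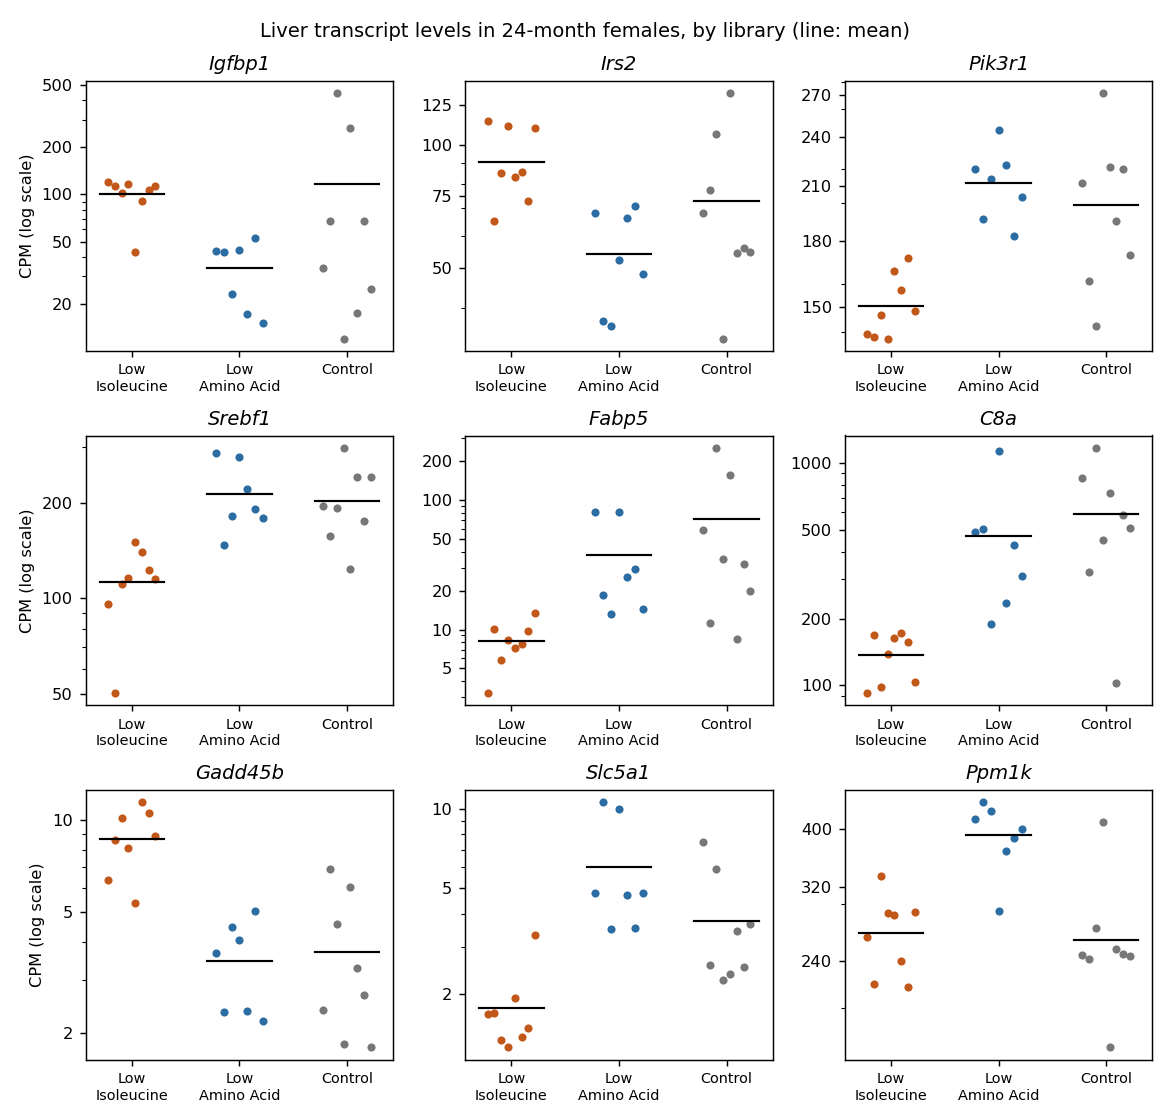
Each point is the level of a gene in 1 liver in CPM (log y axis) for Low Isoleucine (n = 8), Low Amino Acid (n = 7) and Control (n = 8) females at 24 months, with lines at the group means. The 2 restricted groups are apart or overlap in part in each panel. The Control livers spread across both in Igfbp1, Irs2, Pik3r1, Fabp5, C8a and Ppm1k.

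The genes listed here as part of the response to amino acid shortage did not pass the test with all 15 libraries. None of 34 tested integrated stress response and ATF4 target genes passed, 20 had positive and 14 negative fold changes, and the median was 0.04. Atf4 had 54.4, 68.1 and 75.5 CPM in Low Isoleucine livers against 50.8, 56.1 and 73.0 CPM in Low Amino Acid livers (log2 fold change 0.20, SE 0.095, adjusted p = 0.314, edgeR). Fgf21, a hormone induced by protein and amino acid restriction, had 8.83, 20.7 and 41.2 CPM in Low Isoleucine livers against 9.33, 11.8 and 34.6 CPM in Low Amino Acid livers (log2 fold change 0.46, SE 0.380, adjusted p = 0.594). Both genes overlapped between the diets over most of their range. Asns, asparagine synthetase and a classical ATF4 target, had 0.162, 0.319 and 3.19 CPM in Low Isoleucine livers against 0.111, 1.28 and 8.65 CPM in Low Amino Acid livers (log2 fold change -2.13, SE 0.814, adjusted p = 0.219). Ppp1r15a, the GADD34 subunit that directs the dephosphorylation of eIF2 alpha, had 9.65, 12.7 and 16.1 CPM in Low Isoleucine livers against 7.17, 7.99 and 11.3 CPM in Low Amino Acid livers. Its log2 fold change was 0.51 (adjusted p = 0.0835, edgeR), and without the 4 libraries that stood apart it was the single member of the list to pass, at 0.67 (adjusted p = 0.0280, edgeR). It also passed with all 15 libraries in DESeq2 (adjusted p = 0.0177) and limma voom (0.0200), and in edgeR's fit of the 4 restricted-diet groups (0.0271).

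In branched-chain amino acid breakdown, 1 of 24 tested genes passed. Ppm1k (chr6:57506502-57535468), the phosphatase that activates the branched-chain ketoacid dehydrogenase, had 217, 275 and 334 CPM in Low Isoleucine livers against 291, 401 and 444 CPM in Low Amino Acid livers. The log2 fold change was -0.55 (SE 0.109, adjusted p = 0.0381, edgeR), and most Control livers, with a median of 246 CPM, lay at the Low Isoleucine level. Its opposing kinase Bckdk averaged 20.1 ± 2.38 CPM in Low Isoleucine livers and 20.5 ± 1.97 CPM in Low Amino Acid livers (SD, n = 8 and 7; log2 fold change -0.03, adjusted p = 0.902, edgeR). None of 39 tested genes of amino acid catabolism and the urea cycle passed. Of the 39, 28 had positive fold changes (median 0.12), against 6441 of all 12155 genes tested. An unadjusted p under 0.05 was reached by 9 of these 28, and by 882 of the positive genes among all tested. With the term for the title number the median of the list was 0.01. None of 22 amino acid transporters and 25 amino acid sensing genes passed (medians -0.12 and 0.01). With the 4 libraries left out, 1 catabolic gene and 1 transporter gene were higher. The catabolic gene was Sdsl, a serine dehydratase-like enzyme, with a log2 fold change of 1.40 (adjusted p = 0.0332, edgeR), against 0.99 with all libraries (adjusted p = 0.173, edgeR; 0.0633 in DESeq2 and 0.0145 in limma voom). The transporter was Slc16a10, which carries aromatic amino acids, with a log2 fold change of 0.73 (adjusted p = 0.0279, edgeR), against 0.52 with all libraries (adjusted p = 0.121, edgeR; 0.0365 in DESeq2 and 0.0264 in limma voom). Paox (chr7:140115799-140137224), a polyamine oxidase, had 22.0 to 30.3 CPM in Low Isoleucine livers against 31.7 to 68.8 CPM in Low Amino Acid livers, with no overlap (log2 fold change -0.89, SE 0.147, adjusted p = 0.0313, edgeR). Azin2, which counters antizyme in the polyamine pathway and was picked out after its values were seen, had 1.51, 2.07 and 2.51 CPM in Low Isoleucine livers against 2.77, 4.16 and 4.91 CPM in Low Amino Acid livers (log2 fold change -0.91, adjusted p = 0.0336, edgeR).

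C8a (chr4:104815679-104876398), the alpha chain of complement component C8, had 92.4, 148 and 172 CPM in Low Isoleucine livers against 189.6, 429 and 1132 CPM in Low Amino Acid livers. No Low Isoleucine liver reached the lowest Low Amino Acid liver, and the log2 fold change was -1.78 (SE 0.317, adjusted p = 0.0336, edgeR). C8b, the beta chain, was picked out after its values were seen. It had 32.3, 47.8 and 66.6 CPM in Low Isoleucine livers against 58.0, 93.7 and 189 CPM in Low Amino Acid livers (log2 fold change -1.22, adjusted p = 0.0354, edgeR). The highest value of both genes was in Low Amino Acid replicate 4. Serpina7 (chrX:139079257-139085236), thyroxine-binding globulin, had 56.9, 95.7 and 142 CPM in Low Isoleucine livers against 106.1, 223 and 406 CPM in Low Amino Acid livers (log2 fold change -1.26, SE 0.260, adjusted p = 0.0416, edgeR).

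Acute phase genes, plasma proteins that rise in inflammation, moved with these genes in the same library. Low Amino Acid replicate 4 had a mean of 11.3 log2 CPM over that list, with Saa2, an acute phase amyloid, at 3181 CPM, against means of 8.14 to 9.52 log2 CPM in the other 6 Low Amino Acid livers and 8.09 to 9.22 log2 CPM in Low Isoleucine livers. Of 21 tested acute phase genes none passed, 20 had negative fold changes and the median was -0.84; without the 4 libraries that stood apart the median was -0.17 and 1 gene was lower. C8a and C8b were also lower without those libraries, with log2 fold changes of -1.39 and -0.96 (adjusted p = 0.0230 and 0.0252, edgeR). The part of the inflammatory state in the result with all libraries was otherwise not tested.

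**Figure D3:**
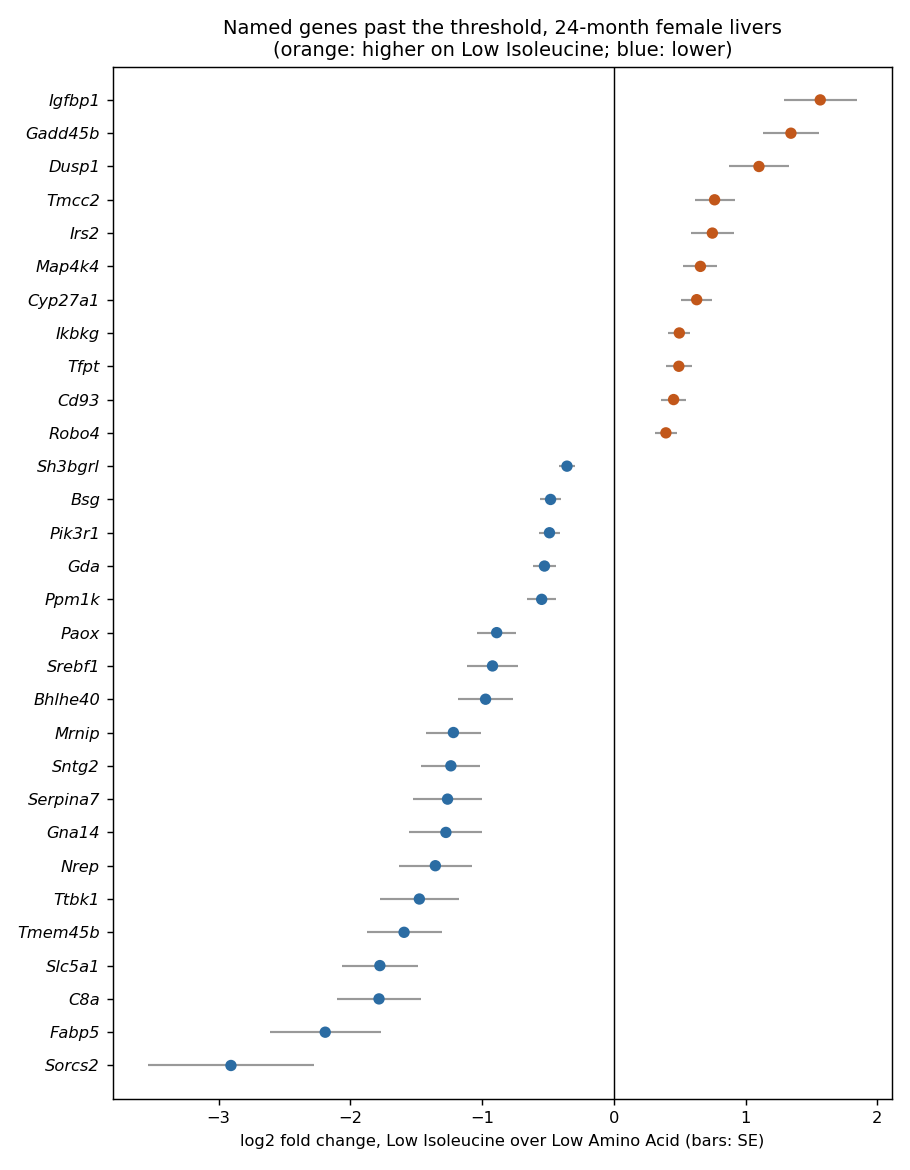
Points give the fitted log2 fold change, Low Isoleucine over Low Amino Acid (x axis), with bars of 1 SE, of the genes named by rule that passed an adjusted p of 0.05 in the 15 livers. They run between 1.57 (Igfbp1) and -2.91 (Sorcs2).

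The lower genes with the largest fold changes included receptors, transporters and signalling genes. Sorcs2 (chr5:36017180-36398139), a sorting receptor of the Vps10 family, had 0.0840, 0.234 and 2.41 CPM in Low Isoleucine livers against 1.15, 4.12 and 6.38 CPM in Low Amino Acid livers (log2 fold change -2.91, SE 0.628, adjusted p = 0.0485, edgeR). Only Low Isoleucine replicate 2 was above 0.345 CPM in that group, and Control livers, at 0.131 to 0.995 CPM, lay with Low Isoleucine. Slc5a1 (chr5:33104219-33162870), the sodium-glucose cotransporter SGLT1, had 1.25, 1.58 and 3.33 CPM in Low Isoleucine livers against 3.51, 4.79 and 10.6 CPM in Low Amino Acid livers, with no overlap (log2 fold change -1.78, SE 0.291, adjusted p = 0.0313, edgeR). Tmem45b, Ttbk1 (a tau tubulin kinase), Nrep, Gna14 (a G protein alpha subunit) and Sntg2 (a syntrophin) fell as well, with log2 fold changes of -1.59, -1.48, -1.35, -1.27 and -1.24 and adjusted p between 0.0336 and 0.0485. Mrnip, a factor bound to the MRN DNA repair complex, had 1.301 to 3.15 CPM in Low Isoleucine livers against 4.03 to 6.81 CPM in Low Amino Acid livers (log2 fold change -1.22). Bsg, Gda and Sh3bgrl differed by less, again with no overlap between the diets. Bsg (basigin, the partner of monocarboxylate transporters) had 163 to 202 CPM in Low Isoleucine livers against 223 to 302 CPM in Low Amino Acid livers. Gda (guanine deaminase) had 30.7 to 41.7 CPM in Low Isoleucine livers against 46.7 to 61.9 CPM in Low Amino Acid livers. Sh3bgrl had 78.2 to 93.2 CPM in Low Isoleucine livers against 99.7 to 119.8 CPM in Low Amino Acid livers. Their log2 fold changes were -0.48, -0.53 and -0.36 (adjusted p = 0.0313 each, edgeR).

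The 16 higher genes included Gadd45b and Dusp1. Gadd45b (chr10:80930073-80932204) encodes a stress-induced regulator of p38 and JNK signalling. It had 5.35, 8.75 and 11.5 CPM in Low Isoleucine livers against 2.19, 3.66 and 5.03 CPM in Low Amino Acid livers. The groups did not overlap, and the log2 fold change was 1.34 (SE 0.213, adjusted p = 0.0313, edgeR); it was the single one of 20 tested p53 target and senescence genes to pass, while 2 were higher and 3 lower without the 4 libraries that stood apart. Dusp1 (chr17:26505590-26562128), a phosphatase that switches those kinases off, had 12.6, 16.9 and 33.5 CPM in Low Isoleucine livers against 5.48, 7.90 and 13.9 CPM in Low Amino Acid livers (log2 fold change 1.10, SE 0.227, adjusted p = 0.0416). It was the single one of 17 tested immediate early genes to pass, and 14 of the 17 had positive fold changes (median 0.39, and 0.33 without the 4 libraries). Map4k4 (a kinase upstream of JNK) and Ikbkg (NEMO, the regulatory subunit of the IKK complex) rose by log2 fold changes of 0.66 and 0.50 (adjusted p = 0.0375 and 0.0335). Tmcc2, Tfpt and Cd93 rose by 0.77, 0.49 and 0.45 on the log2 scale, and in none of these did the 2 diets overlap.

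Cd93 and Robo4 are expressed by endothelial cells. Robo4 had 15.1 to 19.1 CPM in Low Isoleucine livers against 11.6 to 14.9 CPM in Low Amino Acid livers (log2 fold change 0.40, adjusted p = 0.0474, edgeR). It was the single one of 22 tested liver endothelial markers to pass, while 21 of the 22 had positive fold changes, with a median of 0.30 (0.25 without the 4 libraries). The markers summed to 716 to 1145 CPM on Low Isoleucine and 555 to 974 CPM on Low Amino Acid. In whole liver, more cells of a type and more RNA per cell cannot be told apart. Lymphocyte markers had positive fold changes in 18 of 18 tested genes with a median of 1.02, and none passed. Their sums ran between 75.1 and 1509.5 CPM on Low Isoleucine and between 98.4 and 631 CPM on Low Amino Acid. The median sums were closer, at 225.7 CPM on Low Isoleucine and 201.4 CPM on Low Amino Acid. Without the 4 libraries the median log2 fold change of the lymphocyte markers was 0.25. Kupffer cell, neutrophil, erythroid, cholangiocyte and stellate cell markers gave no gene past the threshold, with medians of -0.01, -0.26, -0.32, -0.05 and 0.12. Without the 4 libraries the medians were -0.13, 0.58, -0.11, -0.12 and 0.08, so that of the neutrophil markers turned positive. The mean over the neutrophil markers was 4.54 log2 CPM in Low Isoleucine replicate 5 and 5.34 and 4.74 log2 CPM in Low Amino Acid replicates 2 and 4, against 2.44 to 3.71 log2 CPM in the other 12 libraries; its part in the results was not tested.

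Many circadian clock genes had small unadjusted p values. Of 19 tested members 15 (78.9%) had an unadjusted p under 0.05, 5 higher and 10 lower, against 15.9% of all genes; 1 passed the adjusted threshold, and the list's median was -0.50. Without the 4 libraries that stood apart 4 passed, Cry1 higher and Bhlhe40, Usp2 and Hlf lower, and the median was -0.63. The member that passed with all libraries, Bhlhe40 (chr6:108660629-108666925), a repressor in the clock loop, had 35.5, 43.8 and 64.6 CPM in Low Isoleucine livers against 52.8, 85.6 and 158 CPM in Low Amino Acid livers (log2 fold change -0.97, SE 0.206, adjusted p = 0.0462, edgeR). The other clock genes below were picked out after their values were seen. Dbp, a clock output factor, had 2.28, 12.6 and 37.9 CPM in Low Isoleucine livers against 11.2, 58.8 and 137 CPM in Low Amino Acid livers (log2 fold change -1.90, adjusted p = 0.124). Per3, a period gene of the repressor arm, had 7.41, 22.1 and 62.0 CPM in Low Isoleucine livers against 16.3, 78.6 and 218 CPM in Low Amino Acid livers (log2 fold change -1.58, adjusted p = 0.167). Arntl, which encodes the activator BMAL1, went the other way, with 15.5, 27.9 and 48.7 CPM in Low Isoleucine livers against 2.50, 13.0 and 31.1 CPM in Low Amino Acid livers (log2 fold change 1.08, adjusted p = 0.215). Genes of the activator arm (Arntl, Npas2, Clock) were thus on the higher side and period genes and the output factors Dbp, Tef and Hlf on the lower side, and the groups overlapped in every one of the 19. All 15 had the same sign in the 6-month females, as did 62.3% of all genes. Of the 15, 4 also had an unadjusted p under 0.05 there, against 9.53% of all genes. Without the 6-month library that carries Y-linked RNA the counts were 15 and 5, against 59.4% and 10.4% of all genes. The hour of death is not given in the labels, and its part in these differences was not tested.

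**Figure D4:**
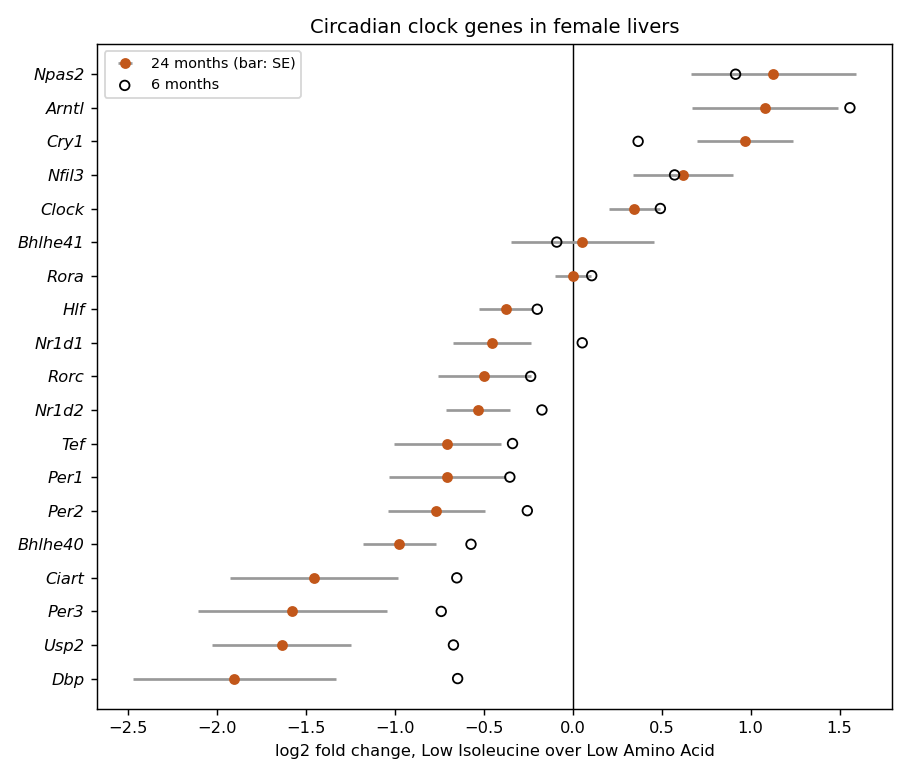
Log2 fold changes, Low Isoleucine over Low Amino Acid (x axis), of the 19 clock genes in female livers at 24 months (filled, with bars of 1 SE) and at 6 months (open). Arntl, Npas2 and Cry1 lie on the positive side and Dbp, Usp2 and Per3 on the negative side at both ages.

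Of the 35 gene lists, 34 had a member among the genes tested; 9 lists held a gene past the threshold and 25 held none. There were 18 lists with such a gene when the 4 libraries that stood apart were left out. The lists not named above had medians between -0.17 and 0.15 and no member past the threshold. They include interferon, chemokine, endoplasmic reticulum chaperone, cytochrome P450, glutathione transferase, fatty acid oxidation, cell cycle, ribosomal, oxidative phosphorylation, hepatocyte and sex-biased genes. Without the 4 libraries their medians lay between -0.23 and 0.37. The lists do not hold every gene of these families. The glutathione transferases Gstm5 and Gstp3 and the DNA replication gene Mcm10, which are in none of the lists, were lower. Their log2 fold changes were -0.74, -0.95 and -0.77 (adjusted p = 0.0336 each, edgeR). Within fatty acid oxidation Pdk4, the kinase that switches off pyruvate dehydrogenase in fasting, had 17.1, 45.9 and 231 CPM in Low Isoleucine livers against 12.4, 20.4 and 28.7 CPM in Low Amino Acid livers (log2 fold change 1.87, SE 0.451, adjusted p = 0.0663, edgeR), and it was higher without the 4 libraries (2.14, adjusted p = 0.0388, edgeR). The members with the smallest p of the lists with no call had adjusted p values between 0.0602 (Cd9, a tetraspanin in the Kupffer cell and macrophage list) and 0.548 (Ifih1, a viral RNA sensor in the interferon list). The other genes that were looked up by name did not pass: the phosphate transporter Slc34a2 (log2 fold change -1.53, adjusted p = 0.0620), the activin subunit Inhbb (1.36, 0.135), the estrogen receptor Esr1 (-0.47, 0.101), the coactivator Ppargc1a (-0.27, 0.452) and Cd207 (-0.26, 0.644).

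Among the called genes, the means of the 2 diets mostly lay on either side of the Control mean. Selecting genes for a difference between the diets favours such a position in advance. The share over all genes tested was not counted. For 41 of the 59 genes lower on Low Isoleucine the Control mean fell between the means of the diets, for 16 it was above both, as for Fabp5 (71.9 ± 87.7 CPM), and for 2 it was below both, Ppm1k among them. For 14 of the 16 higher genes it fell between them, and for 2, among them Igfbp1 (116.3 ± 155 CPM, SD, n = 8), it was above both. The Control median of Igfbp1, 50.9 CPM, lay between the medians of Low Isoleucine (110.4 CPM) and Low Amino Acid (43.2 CPM). Control livers varied more: the median SD over genes was 0.292 log2 CPM on Low Isoleucine, 0.275 on Low Amino Acid and 0.37 on Control. No test was made of these positions.

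At 6 months the same contrast compared other animals, and 7 of 12400 genes (0.0565%) passed. Its spread was estimated over the restricted-diet females of both ages. The p values at 6 months are therefore not separate from the 24-month libraries in which the genes were selected. Of the 75 genes called at 24 months, 71 had the same sign at 6 months, as did 62.3% of all genes, and 44 also had an unadjusted p under 0.05 there, against 9.53% of all genes. Without the library that carries Y-linked RNA, 5 of 12389 genes (0.0404%) passed at 6 months, 72 of the 75 had the same sign, as did 59.4% of all genes, and 39 also had an unadjusted p under 0.05, against 10.4% of all genes. In 74 of the 75 (73 without that library) the fold change at 6 months was smaller in size, in a comparison where the 24-month values had been selected. The gene called at both ages was Srebf1, at 91.4 ± 36.0 CPM in Low Isoleucine livers and 231 ± 87.5 CPM in Low Amino Acid livers at 6 months (SD, n = 8 each; log2 fold change -1.34, SE 0.253, adjusted p = 0.0392, edgeR). Without that library its log2 fold change was -1.39 (SE 0.269, adjusted p = 0.0401, edgeR). Fabp5 and Igfbp1 had log2 fold changes of -1.51 and 0.81 at 6 months (adjusted p = 0.146 and 0.358), and of -1.58 and 0.80 without that library (adjusted p = 0.128 and 0.338).

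With all 6-month libraries C8a, C8b, Nudt7 and Tmcc2 had the opposite sign at 6 months; without the library that carries Y-linked RNA, C8a, C8b and Nudt7 no longer had it, and Tmcc2, Maged1 and Sh3bgrl did. C8a averaged 327 ± 261 CPM in Low Isoleucine livers and 263 ± 48.3 CPM in Low Amino Acid livers at 6 months (SD, n = 8 each; log2 fold change 0.31, adjusted p = 0.751, edgeR). Without that library the Low Isoleucine mean was 239.6 ± 93.5 CPM (SD, n = 7) and the log2 fold change -0.13 (adjusted p = 0.881, edgeR). The difference between the ages itself was tested over 31 libraries, and 0 genes passed (881 had an unadjusted p under 0.05, the smallest adjusted p was 0.563, and DESeq2 called 1 gene, Cd207). For C8a that difference was -2.10 (SE 0.485, adjusted p = 0.563), and -1.65 (SE 0.406, adjusted p = 0.505, edgeR) without the library that carries Y-linked RNA, where again 0 genes passed and 1028 had an unadjusted p under 0.05. Age cannot be told apart from the age at which the diet began or the time on it.

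**Figure D5:**
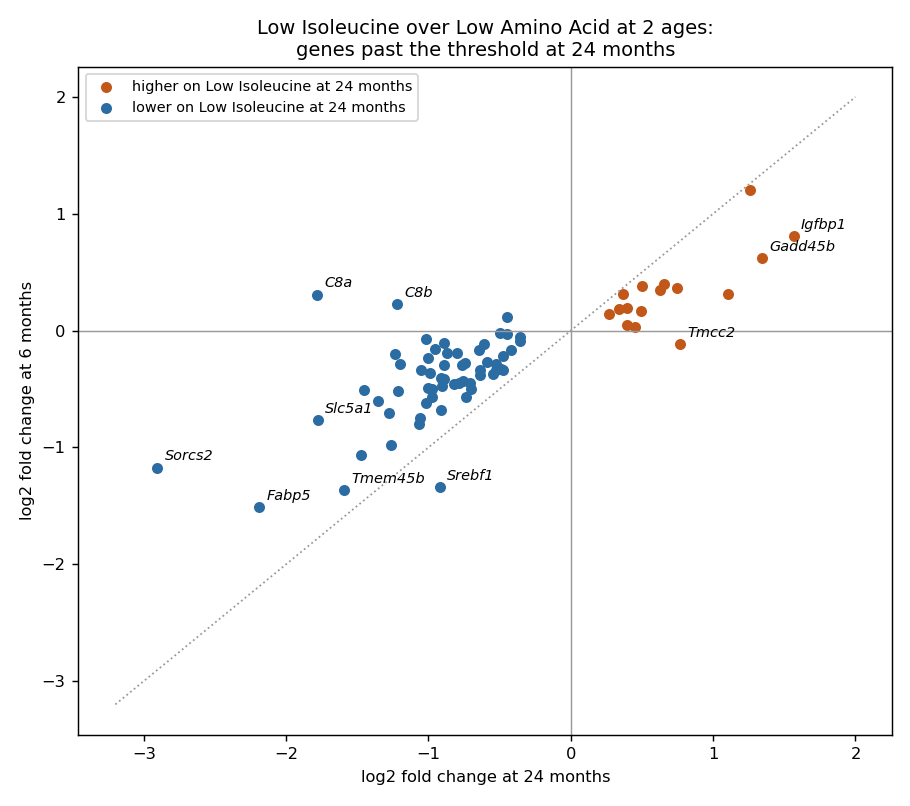
Each point is 1 of the 75 genes called at 24 months, with its log2 fold change (Low Isoleucine over Low Amino Acid) at 24 months on the x axis and at 6 months on the y axis; the dotted line marks equal values. The 6-month values include the library that carries Y-linked RNA; all but 4 points share their sign at both ages, and C8a and C8b, which lie above 0 at 6 months here, were at -0.13 and -0.06 without that library.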

How the data were processed

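Liver RNA of 92 HET3 mice was sequenced from stranded libraries of polyadenylated RNA, with the lanes of a sample merged before expression was estimated, per the labels' protocols. The submitters' processing notes name GRCm38.p5, edgeR, limma and R 3.4.3. Aligner: not given in the sources used here. The authors deposited a gene table of estimated counts, not normalized. Its lines are misaligned: of 51912 lines 17275 are filled under all columns, and only these, with the 47 female columns, were used; the other 45 value columns were not. Of the identifiers, 17250 matched GENCODE M21 (GRCm38). The authors' deposited table of each sex, with log2 fold changes, p-values and an F score, was used for a check only: across 11952 genes the female difference between the diets correlated with that from the counts at r = 0.87, and at 0.964 without the 4 libraries.

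Groups follow the diet, sex and age given for each sample; replicate numbers are accession order and pair nothing. Estimated counts were rounded, filtered with filterByExpr, scaled by TMM and fitted on the 15 libraries with edgeR 4.0.16's quasi-likelihood test (R 4.3.3), with Benjamini-Hochberg adjustment over all genes tested and a threshold of 0.05. CPM uses TMM-scaled totals, and SEs come from the fold change and its F. DESeq2 1.42.0, limma 3.58.1 and the other alternatives are in the closing section. Steps were tested on simulated data. Nothing states that samples came from separate cages, so p-values measure the spread between these samples. Members and gene lists were chosen with earlier results of these data known. Named genes are the 10 largest changes each way past the threshold with at least 1 CPM, the 10 smallest p, up to 4 per list past the threshold or 2 otherwise, and a short fixed set.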

Additional observations from a re-analysis of the deposited data

Results flagged for a closer look

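Of 94 sets of values within a diet group, 10 had a highest or lowest library separated from the rest by a gap that is large for the group's range; chance does this in about 1 set in 20. The ratio given is gap over range on the log2 scale, or on counts for totals.

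In Low Isoleucine replicate 5, the total was 7819965 counts against 19652851 in the next lowest (ratio 0.711), Igfbp1 was lowest at 43.0 CPM against 90.8 CPM (0.729), Asns was highest at 3.19 CPM against 0.924 CPM (0.554), and the acute phase mean was highest at 9.22 log2 CPM against 8.59 (0.555). In Low Isoleucine replicate 2, Sorcs2 was highest at 2.41 CPM against 0.345 CPM (0.770), Tmem45b was highest at 1.73 CPM against 1.02 CPM (0.537), and Srebf1 was lowest at 50.3 CPM against 96.04 CPM (0.588). Slc5a1 was highest in Low Isoleucine replicate 8 at 3.33 CPM against 1.93 CPM (0.581). In Low Amino Acid replicate 2, Ppargc1a was highest at 67.5 CPM against 42.1 CPM (0.612), and Bckdk was lowest at 16.6 CPM against 20.3 CPM (0.615). Igfbp1, Sorcs2, Tmem45b, Srebf1 and Slc5a1 had larger or smaller fold changes without replicates 2 and 5 of Low Isoleucine and 2 and 4 of Low Amino Acid: 1.84, -4.09, -1.68, -0.87 and -1.30 on the log2 scale. All 5 passed the threshold there.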

How the results depend on the processing

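Against 75 genes with the main settings, DESeq2 called 456, limma voom with quality weights 623, the fit on all 6 female groups 137, the fit on the 4 restricted-diet female groups 306, and the fit without the 4 libraries that stood apart 306. Fewer were called in the fit on the 3 diet groups at 24 months (16), with a term for the title number (0), among title numbers up to 100 (0), and in the 3 diet groups with that term (2, Paox and Tmem237), a fit chosen after seeing the data. RLE size factors gave 73 and no filter on low counts gave 52. Leaving out single libraries gave 0 to 136. All 75 kept their direction in each of these, which their selection in the same libraries made likely in advance. At 6 months 7 genes passed, and 5 without the library that carries Y-linked RNA, a fit also chosen after seeing the data. For the difference between the ages DESeq2 called 1 gene and the other alternatives 0, leaving out single libraries included (0 to 0). Over the genes named or called, 2391 alternative values kept their side of the threshold, 1108 lost the call, 63 gained it and none changed direction when called. No paired analysis was possible because the replicate numbers are accession order and mark no shared animal. The fewer genes called with the title number came with unequal numbers above 100 in the 2 diets; its cause was not tested. Replicate 5 of Low Isoleucine, at 7819965 counts, is the least precise library.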
